A study of Drosophila melanogaster with 4 samples.

Results

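Long stretches of the fly genome without a called site of LSD1 were examined in chromatin from nuclei of Drosophila melanogaster larvae. LSD1 is the enzyme that the gene Su(var)3-3 encodes in Drosophila. It removes methyl groups from lysine 4 of histone H3. It is known as a subunit of corepressor complexes and as a factor in the spread of heterochromatin. A tract without a called site is a stretch in which the authors' list of enriched regions holds none. It is not a measurement that the protein is absent.

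The samples were 4 libraries from nuclei of wild-type Oregon-R larvae of the third instar, made by ChIP-seq, in which fixed and sheared chromatin is precipitated with an antibody and sequenced. There were 2 libraries precipitated with the antibody LSD1 Q3430 and 2 libraries of input chromatin, each paired by the labels with 1 ChIP replicate. All shared the same strain, genotype and stage, and the labels name no single tissue or cell type. Nothing in the labels ties the replicates to different batches of larvae, so their spread may be only technical.

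The authors deposited a list of enriched regions, called clusters here, for each ChIP replicate, and a combined list for the replicate set. Gaps were taken from the combined list on chromosome arms 2L, 3L and 3R and on chromosome X. A gap is the interval between the end of a cluster and the start of the next, and the members were chosen by this measured length, at least 20 kb. Of 7737 intervals between neighbouring clusters on these 4 arms, 698 met this rule, which is 9.02%. Over every sequence of the combined list there were 9841 such intervals. Positions are counted from 1 on the FlyBase release 5 genome named in the file headers. The number, length and position of the gaps follow from the list that defined them and are given as description, without a test. The lists hold no read numbers, so depth is unknown, and a gap cannot be told from a stretch with few mappable or sequenced reads.

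The gaps took up 38.3 Mb, which is 39.1% of the 97.9 Mb of the 4 arms and 59.1% of all bases between clusters. The median of all intervals was 2335 bp, and that of the 698 gaps was 36863 bp, with quartiles of 25511 and 68131 bp. The short gaps were the most numerous and the long ones held most of the bases. There were 255 gaps of 20 to 30 kb with 16.0% of the gap bases, and 191 gaps of 30 to 50 kb with 19.0%. The 166 gaps of 50 to 100 kb held 30.9%. A further 86 gaps of 100 kb or more held 34.0%, and 9 of these exceeded 200 kb. The 158 widest gaps together held 50% of the gap bases. The threshold fell within a smooth run of lengths. The 3 shortest gaps kept were 20029, 20053 and 20059 bp long, and the 3 longest intervals left out were 19977, 19857 and 19795 bp.

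The widest gap, of 363259 bp, lay on 3L from 13493393 to 13856651. Clusters of replicate 1 covered 195 bp of it and those of replicate 2 covered 1410 bp. The cluster at its left edge was 14383 bp wide and that at its right edge 3187 bp. The second widest, of 319255 bp, lay on X from 21525435 to 21844689, towards the centromere side of the arm. Replicate 1 left it empty, and replicate 2 placed 1 cluster of 1746 bp inside it. Clusters of replicate 2 thus covered 0.39% and 0.55% of these gaps, against 0.40% of the bases of all 698 gaps. Those of replicate 1 covered 0.05% and 0%, against 0.11%.

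Gaps over 200 kb occurred on each of the 4 arms. On 3R a gap of 272909 bp ran from 23815829 to 24088737, with 0 bp covered in replicate 1 and 122 bp in replicate 2. On 2L a gap of 270359 bp ran from 11532991 to 11803349, with 5 bp and 25 bp covered. The next 5 by length had no covered base in either replicate. They lay on 3R from 23126975 to 23372577 and from 6715643 to 6951425, on X from 20632589 to 20867223, on 3L from 4900503 to 5119673 and on 2L from 15930047 to 16137709, and measured 245603, 235783, 234635, 219171 and 207663 bp. Each of the remaining 3 among the 12 widest had bases covered in replicate 1 only. These were a gap of 199517 bp on 2L from 15062547 with 363 bp, one of 196497 bp on 3R from 7070701 with 102 bp, and one of 194285 bp on X from 12149081 with 11 bp. The third widest of 3L, of 188681 bp from 24030633 to 24219313, was empty in both.

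**Figure D1:**
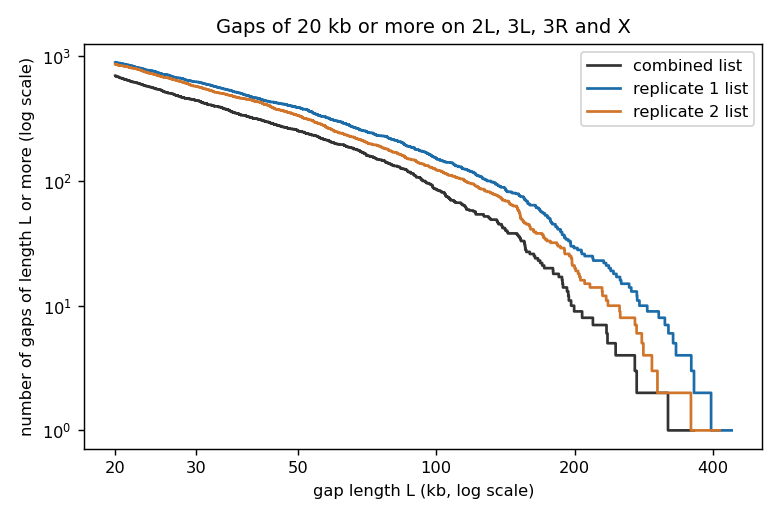
Number of gaps (y axis, log scale) of at least the length on the x axis (kb, log scale) in the combined list and in the list of each replicate, on 2L, 3L, 3R and X. The combined list starts at 698 gaps and ends at 363 kb, below both replicate lists, which start at 894 and 865 gaps and end at 439 and 413 kb.

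X had the largest share of its length in gaps, and 3L the smallest. The share was 45.4% on X (177 gaps), 40.2% on 2L (172 gaps), 39.2% on 3R (200 gaps) and 32.2% on 3L (149 gaps). Per Mb there were 7.89 gaps on X and 6.90 on the 3 autosome arms together, of which 37.2% lay in gaps. Median lengths lay close together, from 36115 bp on 3R to 38667 bp on 3L. Of the intervals on X 11.1% were 20 kb or longer, against 9.50% on 2L, 8.81% on 3R and 7.22% on 3L. When gaps were taken from each replicate's own list, X again had the largest share. It was 62.1% in replicate 1 and 61.3% in replicate 2 on X, and 57.8% and 48.9% on the autosome arms. The difference between X and the autosome arms was thus smaller in replicate 1, where 3R reached 60.0% and 2L 59.2%.

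The single-replicate lists left nearly all bases of the gaps uncovered, as they did in the shorter intervals of the combined list. Of the 698 gaps, 491 had no base covered in replicate 1, which is 70.3% (exact 95% binomial interval 66.8 to 73.7, counting error only). In replicate 2, 447 did (64.0%, interval 60.4 to 67.6), and 283 were empty in both (40.5%, interval 36.9 to 44.3). Among all intervals with at least 1 base, 74.8% were empty in replicate 1, 71.6% in replicate 2 and 49.2% in both, so emptiness by this count was not more common among the gaps than among intervals of any length. Counted in bases, clusters of replicate 1 covered 0.11% of the gaps and those of replicate 2 covered 0.40%, a mean of 0.25 ± 0.20% (SD, n = 2). They covered 0.51% and 0.93% of the intervals of 10 to 20 kb, and 1.52% and 1.99% of those under 10 kb. Of the whole 4 arms they covered 23.3% and 25.1%. The combined list derives from the same libraries, and low coverage between its clusters follows largely from that, so no test was made.

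Most of the clusters that broke into a gap did so at its edge. In replicate 1, 213 clusters that also overlap the combined list reached past an edge and covered a median of 79 gap bases, with 96.2% of them covering fewer than 500. A further 9 lay wholly inside a gap, with 14413 of the 42604 covered bases. In replicate 2, 226 clusters reached in, with a median of 98 gap bases and 92.5% of them under 500. A further 77 lay wholly inside, and these held 112922 of the 152360 covered bases. With 500 bp trimmed from each end, 97.6% of the gaps were empty in replicate 1, 87.1% in replicate 2 and 85.2% in both. Under the same rule, 97.8%, 94.8% and 92.7% of all intervals longer than 1000 bp were empty. The most gap bases covered by a cluster reaching in were 1327 in replicate 1 and 1412 in replicate 2.

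**Figure D2:**
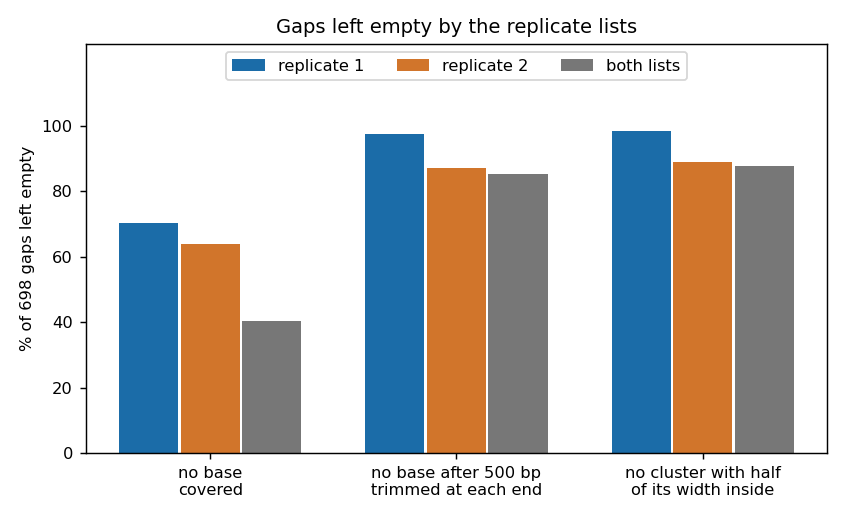
Percentage of the 698 gaps (y axis) left empty by replicate 1, replicate 2 and both lists, under 3 definitions of empty along the x axis. The bars for both lists rise from 40.5% when a single covered base counts to 85.2% after trimming and 87.8% when 50% of a replicate cluster must lie inside.

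The 9 inside clusters of replicate 1 and the 77 of replicate 2 were each without an overlapping partner in the other replicate. They are by selection the clusters that a list made from both replicates left out, so nothing is read from this. The inside clusters were short, with median widths of 1577 and 1396 bp, against 2452 and 2157 bp for clusters of the same lists and arms that the combined list took in. Their median value, the enrichment value that the authors gave each cluster without naming its unit, was 0.46 in replicate 1, against 0.64 for those taken in. In replicate 2 it was 0.63 against 0.62. The clusters compared differ in width, as given above, and were not matched for it. The value has no stated scale and is compared only within a list.

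Inside clusters were found on each arm in replicate 2 and on all but 3L in replicate 1. In replicate 2 there were 24 on 2L, 21 on 3R, 18 on 3L and 14 on X, in 74 gaps. The gaps held 9.25 Mb on 2L, 10.9 Mb on 3R, 7.90 Mb on 3L and 10.2 Mb on X. In replicate 1 there were 4 on X, 3 on 3R and 2 on 2L, and none was found on 3L. The strongest by value in replicate 2, 1.86, was the cluster in the wide gap of X, from 21592547 to 21594292, and lay 67112 bp from the nearer edge. The next, of 1.03, lay on 2L from 17177233 to 17178739. The strongest in replicate 1, 0.60, lay on X from 9248715 to 9250702, only 168 bp from an edge. Per Mb of gap, clusters missing from the combined list numbered 0.24 in replicate 1 and 2.01 in replicate 2. Intervals of 10 to 20 kb held 1.38 and 4.15 per Mb, and those under 10 kb held 1.03 and 3.34. Such clusters were thus fewest per base in the long gaps in each replicate, without a steady fall with length. In replicate 1 this rests on 9 clusters in the gaps, 15 in intervals of 10 to 20 kb and 16 in shorter ones.

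The gaps with the largest covered share were short ones, as a cluster of a given width takes up more of a short gap. On 3R, 3 clusters of replicate 2 covered 10.4% of a gap of 20891 bp from 6628643 to 6649533. On 2L they covered 10.1% of a gap of 20511 bp from 14748023 to 14768533. The next share was 8.79%, in a gap of 20169 bp on 2L from 21955061 to 21975229. All 3 of these had 0 bp covered in replicate 1. In replicate 1 the largest share was 7.71%, in a gap of 23639 bp on X from 21209087 to 21232725, where replicate 2 covered 0.15%. A gap of 25375 bp on 3R from 1293659 had 5.67% covered in replicate 1 and nothing in replicate 2. On 2L from 13004911 to 13036043 both replicates covered part of a gap, 5.29% and 4.84%, with clusters that did not overlap each other.

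The arms differed in which replicate left more gaps empty, and the same order held over all their intervals. On X, replicate 1 left 62.7% of the gaps empty (interval 55.1 to 69.8) and replicate 2 left 78.0% (interval 71.1 to 83.8). The order was the reverse on the autosome arms. There replicate 1 left 72.1% empty on 2L, 75.8% on 3L and 71.5% on 3R, and replicate 2 left 59.9%, 55.7% and 61.5%. Clusters reaching in from an edge touched 35.6% of the X gaps in replicate 1 and 16.9% in replicate 2. Over all intervals with at least 1 base, replicate 1 left 65.6% empty on X and 77.0%, 76.7% and 77.9% on 2L, 3L and 3R, and replicate 2 left 80.2% on X and 67.6%, 71.3% and 69.2%. The difference between X and the autosome arms was not tested, and these values show that it was not particular to the gaps.

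Each replicate alone had more and longer gaps than the combined list. Replicate 1 had 894 gaps of 20 kb or more, 19.9% of its intervals, and replicate 2 had 865, 13.8% of its intervals, a mean of 880 ± 21 (SD, n = 2). They took up 58.8% and 51.7% of the 4 arms, a mean of 55.2 ± 5.0%. The longest of replicate 1 measured 439044 bp and ran on 2L from 16929205 to 17368248. That of replicate 2 measured 413318 bp and ran on 3L from 4749396 to 5162713. In the combined list 10 clusters touched the first of these, of which 6 overlapped no replicate cluster, and 10 touched the second, of which 5 did not. Of the bases of the 698 gaps, 99.7% lay in a gap of 20 kb or more of replicate 1 and 98.1% in one of replicate 2. In the other direction 66.3% and 74.2% of the replicates' gap bases lay in the 698 gaps.

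Some of the clusters found only in the combined list lay in long intervals that both replicates left free. With both replicate lists pooled, 789 intervals of 20 kb or more were free of clusters, with 45.1 Mb or 46.0% of the 4 arms and a longest interval of 395432 bp. Of their bases, 82.7% lay in the 698 gaps. The combined list had 2251 clusters on these arms that overlap neither replicate, and 930 of them (41.3%) lay in these free intervals. They entered 479 of the 789 intervals and left 310 without one. A cluster that overlaps neither replicate can lie only where both lists are free. The share of all such free bases that the 789 intervals hold was not computed. The 41.3% is therefore not read as many or few.

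Replicate coverage dropped at the edges of the gaps, and from 2 to 20 kb outside them it was near the level of the arms. From 20 to 10 kb outside an edge, clusters covered 23.0% of the bases in replicate 1 and 24.1% in replicate 2. From 10 to 2 kb outside they covered 23.4% and 24.3%. In the last 2 kb before the edge, where a cluster of the combined list ends by definition, coverage was 34.8% and 39.8%. In the first kb inside it fell to 2.02% and 2.83%, and from 1 to 10 kb inside it was 0.081% and 0.45%. The mean over replicates was 23.8 ± 0.6% from 10 to 2 kb outside and 0.26 ± 0.26% from 1 to 10 kb inside (SD, n = 2). Neighbouring gaps share part of these flanks. The edges were set by a list made from the same libraries, so the drop follows largely from that.

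**Figure D3:**
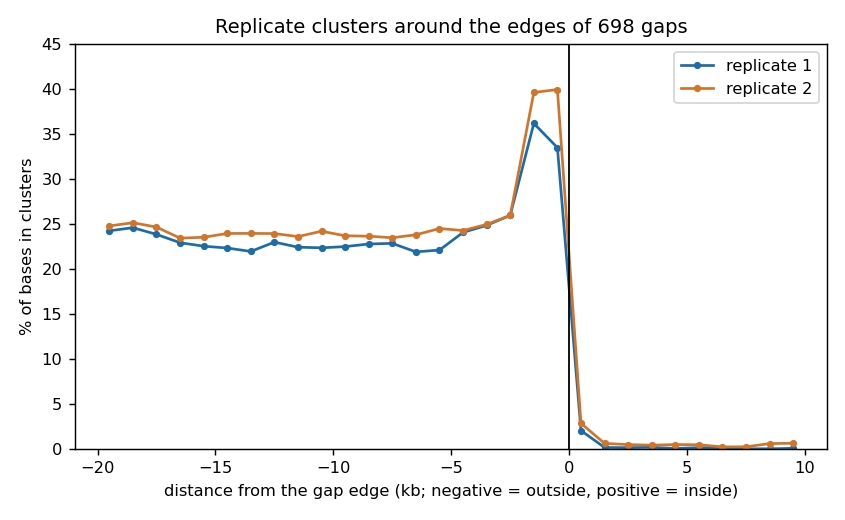
Percentage of bases in clusters of each replicate (y axis) by distance from the edge of a gap (x axis, kb, in steps of 1 kb), over both edges of the 698 gaps. Both lines run between 21.9% and 26.0% from 20 to 2 kb outside the edge, rise in the last 2 kb and drop below 3% inside.

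The clusters that bound the gaps were narrower than the other clusters of the same arms, and fewer of them were found in the replicates. The 698 gaps were bounded by 1270 clusters, 126 of which had a gap on both sides. The median width was 1684 bp (quartiles 1212 and 2808 bp) at the edges and 2017 bp (quartiles 1383 and 4124 bp) for the other 6471 clusters. Of the edge clusters, 390 overlapped a cluster of each replicate, which is 30.7% (interval 28.2 to 33.3), against 37.8% of all clusters of the 4 arms. A further 437 overlapped neither, which is 34.4% (interval 31.8 to 37.1), against 29.1% of all. Widths over 10 kb were found for 87 edge clusters, 6.85%, against 9.30% of all. Median values were 0.45 at the edges and 0.43 for the others. All clusters came from the list that set the gaps, so these differences are descriptions. On these arms the narrowest cluster was 1001 bp wide in the combined list and 1301 bp in each replicate list. In the combined list 1754 clusters were narrower than 1301 bp, so overlap with a replicate is tied to width.

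Edge clusters were narrower than the others on each of the 4 arms. Their median widths were 1643 bp on 2L, 1783 bp on 3L, 1681 bp on 3R and 1685 bp on X, against 2059, 2017, 1965 and 2076 bp. The share found in neither replicate was above that of the other clusters on each arm, by the least on 3R (30.1% against 28.4%) and by the most on X (39.7% against 28.0%). When the clusters were divided by width into 4 classes of equal number, the share found in both replicates was not lower at the edges in the 3 wider classes. It was 10.3% at the edges and 7.05% elsewhere from 1349 to 1965 bp, 51.5% and 48.8% from there to 3911 bp, and 95.3% and 93.8% above that. In the narrowest class it was 0% and 0.20%. The share found in neither replicate was not higher at the edges in any of the 4 classes. From the narrowest class up it was 75.6% at the edges and 77.0% elsewhere, then 27.4% and 33.3%, then 7.07% and 7.49%. In the widest class it was 0% for both groups.

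The difference was largest in the cluster next to the gap. Going outwards, the first cluster had a median width of 1663 bp with each edge counted, the second 1916 bp, the third 1957 bp and the fifth 1939 bp. The share found in both replicates was 30.0% for the first, 37.1% for the second and 38.5% for the third. Across the 698 gaps, which share 1 list, the widths of the left and right edge cluster had a Spearman's rho of 0.01, and gap length and mean edge width had one of -0.04.

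Clusters with a gap on both sides were smaller still, and a smaller share of them overlapped both replicates. Their median width was 1429 bp, and 0.51 was their median value, above the 0.44 of clusters with a gap on one side. Of them 29 overlapped both replicates, which is 23.0% (interval 16.0 to 31.4), and 55 neither, which is 43.7% (interval 34.8 to 52.8). A few were sites in both replicates all the same. One of 2795 bp on 3R from 24088738 to 24091532 separated the gap of 272909 bp from one of 58577 bp, and the authors' values were 0.62 for it, 0.88 for the cluster of replicate 1 there and 0.99 for that of replicate 2. On 3L from 23329948 to 23333710 a cluster of 3763 bp stood between gaps of 57265 and 149875 bp, with 0.77, 0.83 and 0.86. A domain on 2L, 51457 bp wide from 1882964 to 1934420, lay between gaps of 129863 and 46057 bp, and clusters covered 88.7% of it in replicate 1 and 95.5% in replicate 2.

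**Figure D4:**
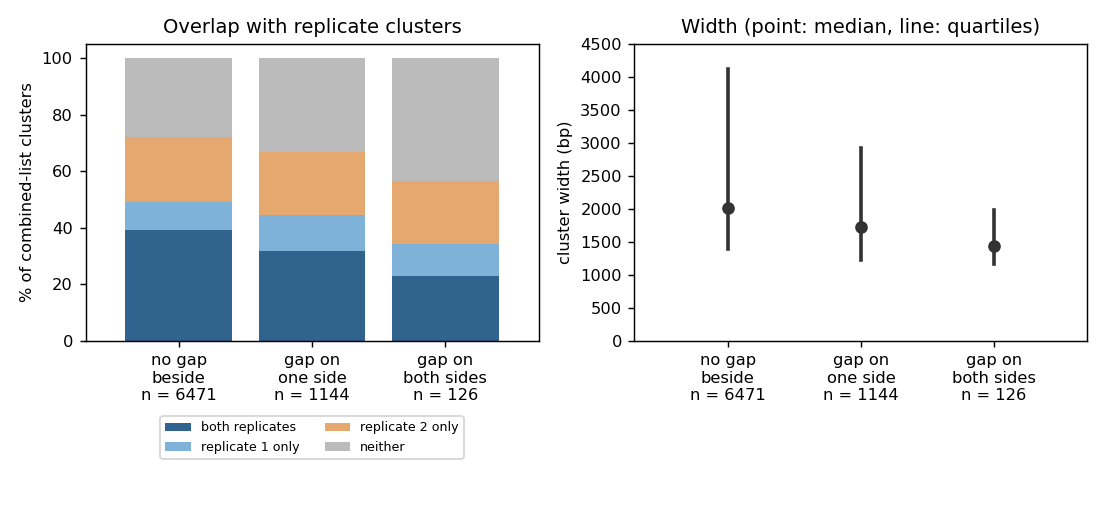
Left, percentage of combined-list clusters (y axis) that overlap both replicates, 1 replicate or neither, for clusters with no gap beside them (6471), a gap on one side (1144) and a gap on both sides (126). Right, their widths (bp), with medians of 2017, 1717 and 1429 bp as points and quartiles as lines.

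Broad domains were found at some edges too. The widest edge cluster, of 90729 bp on 2L from 12457440 to 12548168, ended at a gap of 26085 bp and had a value of 1.34. Clusters of replicate 1 covered 100.0% of it in 1 piece and those of replicate 2 covered 99.0% in 2 pieces. On 3R a domain of 56133 bp from 898202 to 954334 ended at a gap of 22903 bp, and on X a domain of 52097 bp from 17360666 to 17412762 began at the end of a gap of 98477 bp. In replicate 1 they were covered to 100.0% and 86.2%, in replicate 2 to 95.7% and 85.2%.

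The minimum width on these arms was 1001 bp in the combined list and 1301 bp in each replicate list. The 3 edge clusters with the largest values were all 1001 bp wide, and none overlapped a cluster of either replicate. They lay on 3L from 16437008 to 16438008 (2.83), on 3R from 3869600 to 3870600 (2.71) and on 3L from 24384550 to 24385550 (2.71). Of all clusters of the 4 arms, 96 had this width, or 1.24%, and 86 of these overlapped neither replicate. Among edge clusters it was 33 (2.60%), and among those with a gap on both sides 6 (4.76%). Among edge clusters, the smallest values were on 3R from 2737150 to 2738810 (0.10) and from 22550270 to 22551870 (0.12), and on 2L from 19044468 to 19045810 (0.12). The first of these was found in both replicates, the second in replicate 1 only and the third in neither.

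Gaps followed each other more often than their share of all intervals. After a gap, the next interval was again a gap in 126 of 698 cases, 18.1% (interval 15.3 to 21.1), and after a shorter interval in 572 of 7035 cases, 8.13% (interval 7.50 to 8.79). The first share was the higher of the pair on each arm, from 16.4% against 10.5% on X to 19.5% against 6.27% on 3L. The binomial intervals cover counting error only and treat neighbouring stretches of 1 list as independent, so they are no test. In all, 229 gaps (32.8%, interval 29.3 to 36.4) had another gap next to them across 1 cluster. Shorter intervals beside a gap were also longer than elsewhere, with a median of 2995 bp for 1072 of them and 1791 bp for the other 5967.

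Runs of gaps were short. There were 83 pairs, 17 runs of 3 gaps and 3 runs of 4. A run of 4 on X from 12659313 to 12979911 spanned 320599 bp, of which 95.9% lay in gaps. The others were on 2L from 15502729 to 15731913, of 229185 bp with 97.5% in gaps, and on 3R from 23533219 to 23750459, of 217241 bp with 93.1%. In these 3 runs replicate 1 covered 31, 106 and 46 bp of the gaps and replicate 2 covered 0 bp of each. The widest span was a run of 3 gaps on 3L from 4757663 to 5144785, of 387123 bp, with 2726 bp of clusters between the gaps and no base of the gaps covered in either replicate. It is the region of the longest gap of replicate 2.

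The 4 arms hold 96 complete windows of 1 Mb, and each had gaps. There were from 2 to 15 gaps in a window, with a median of 7 and a ratio of variance to mean of 0.77. The share of a window in gaps ran from 6.26% to 75.6%, with a median of 37.7%. In 7 windows at least 65% lay in gaps, and in 12 under 20%. The richest in gaps were 3R from 23 to 24 Mb (75.6%, 10 gaps), 2L from 17 to 18 Mb (75.1%, 7 gaps), 3L from 23 to 24 Mb (74.5%, 13 gaps) and X from 12 to 13 Mb (72.4%, 9 gaps). X from 20 to 21 Mb and from 21 to 22 Mb followed with 71.1% and 71.4%. On 2L from 22 to 23 Mb as many as 15 gaps made up 63.5%. The poorest were the first megabase of 3R (6.26%, 2 gaps) and 2L from 7 to 8 Mb (10.1%, 3 gaps).

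Gaps lay along the whole of each arm, with no common direction from centromere to telomere. When each arm was divided into 5 equal segments, the segment on the centromere side had 41.2% of its bases in gaps over the 4 arms together. The others had 39.2%, 39.7%, 36.2% and 39.2%, in order towards the telomere. The centromere side is the end of the sequence on 2L, 3L and X and its start on 3R. Finer division into 10 segments showed departures on single arms. The segment nearest the centromere had 68.3% of its bases in gaps on X and 63.3% on 3L, against 45.4% and 32.2% for the whole arms. On 2L it had 38.5% and on 3R 31.5%, both below the whole arm. The highest segment of 2L was number 3 from the centromere side, with 56.3%, and that of 3R was number 9, with 58.2%. The lowest were number 7 of 2L with 17.0% and number 2 of 3L with 17.7%, next to the richest segment of that arm.

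**Figure D5:**
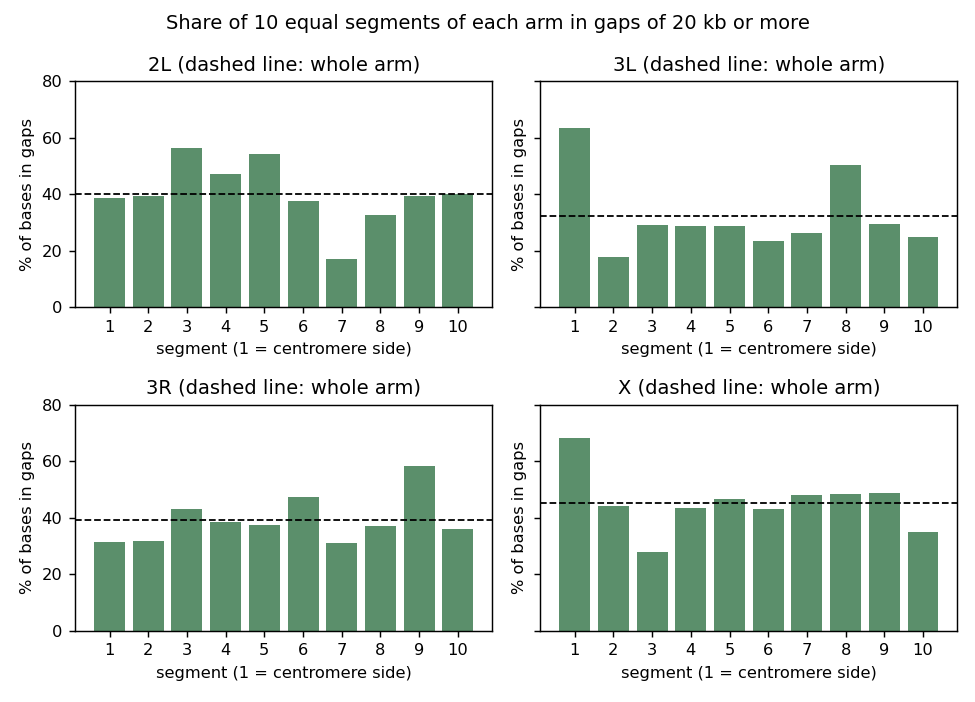
Percentage of bases in gaps of 20 kb or more (y axis) for 10 equal segments of 2L, 3L, 3R and X, counted from the centromere side (x axis), with the whole arm as a dashed line. X and 3L have their highest bar in segment 1 (68.3% and 63.3%), 2L in segment 3 and 3R in segment 9.

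Stretches outside the first and last cluster of an arm are not gaps by the rule. Of these 8 arm ends, 3 were longer than 20 kb: 51081 bp at the start of 3L, 35222 bp at the end of 2L and 22191 bp at the start of X. On 3R the first cluster began after 389 bp. The last cluster of 3L ended 831 bp beyond the length that the file header gives for the arm.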

How the data were processed

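LSD1 ChIP-seq data of 2 ChIP replicates and 2 inputs were used. The authors deposited 3 lists of enriched regions: 1 per ChIP replicate and 1 for the replicate set. Bowtie 0.12.7 is among the tools in the submitters' processing notes. The sources used here do not give the caller, threshold, scaling or way of combining replicates. Each region carries a deposited score from the authors, called its value, whose unit no header line names. It was used only within a list. Starts and ends are deposited positions on FlyBase release 5, per the file headers.

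From these files, regions marked as enriched were sorted by start, gaps were measured, and overlaps of at least 1 bp with replicate clusters were counted. Edge clusters, runs, equal segments of the arms, and 1 Mb windows were described. The gap search was tested on simulated lists. Named regions were the 12 widest gaps, the 3 widest per arm, those nearest the threshold, the 3 longest runs, the 3 with most coverage in each replicate, and the 3 edge clusters with the largest and with the smallest values. The widest edge clusters, the clusters with a gap on both sides, the inside clusters and the 1 Mb windows named were chosen after their values were seen. The members and all descriptions were chosen with earlier results of these data known. No gene annotation or genome of release 5 was used here, so no gene or sequence is given. The gene table at hand is of release 6 and was not used. Depth is unknown, and binomial intervals cover counting error only. Python 3.11.15, numpy 2.4.6, pandas 2.3.3, scipy 1.17.1 and matplotlib 3.10.9 were used.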

Additional observations from a re-analysis of the deposited data

How the results depend on the processing

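No paired analysis was possible because the inputs could enter only through the authors' calls and no result comes from a test between groups. Of 58 alternative values, 24 moved by less than the spread and 34 by more. The spread was the SD between replicate lists or the binomial interval, and for counts a factor of 1.5. Some of the 34 measure another quantity, so the tally is not a measure of processing alone. These are the share in the nearest of 10 segments, the clusters with a gap on both sides, and the gaps empty in a single list. The number of gaps was 443 with a minimum of 30 kb, and with one replicate list alone 865 to 894. The share of the arms in gaps was 32.8% with 30 kb, 45.8% without the 1754 clusters narrower than any of the replicates, 47.6% without clusters found in neither replicate (chosen after the data were seen), and 51.7% to 58.8% with one replicate list alone. The share of gaps next to another gap was 38.0% with a minimum of 15 kb, 26.2% with 30 kb, 38.3% without narrow clusters, 41.6% without clusters found in neither replicate, 41.3% to 41.8% with one list alone, and 54.7% when gaps within 20 kb of each other count as neighbours. The share of gap bases in the segment on the centromere side (of 5) was 21.1%, and each replicate list alone also gave 21.1%. The SD between these lists was 0.05 percentage points (n = 2), so even slight shifts exceeded it. This share was 20.9% with 15 kb, 20.3% with 30 kb and 20.7% without the lowest 10% of values. It was 21.0% without narrow clusters, 20.9% for the union of the lists and 20.9% without clusters in neither replicate. Without 2L it was 21.6%, without 3L 20.0%, without 3R 23.1% and without X 19.7%. Of 10 segments, that on this side held 12.7%. Edge clusters with a gap on both sides had a median width of 1429 bp and value of 0.51. Gaps empty in the replicates rose to 98.6%, 88.8% and 87.8% (replicate 1, replicate 2, both) when 50% of a cluster must lie inside, and to 97.6%, 87.1% and 85.2% with 500 bp trimmed. With one replicate alone 64.0% to 70.3% were empty. The causes of these shifts were not tested. By construction the 2 rules on overlap ask for more overlap. The single replicate lists differ from the combined list in libraries, cluster number and minimum width, which cannot be told apart here. What depth limits cannot be shown without read numbers.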
